A study of Homo sapiens with 30 samples.

Results

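The genes of the E2F pathway and of the DNA replication machinery were examined in chromatin immunoprecipitation sequencing (ChIP-seq) of MDA-MB-231, an established triple-negative breast cancer cell line. The set held 47 genes chosen by name, of 20090 protein-coding genes on the autosomes and chromosome X, and all 47 were found in the annotation. It was made up of 5 E2F factors, 2 E-type cyclins, 4 origin licensing genes, 7 MCM genes, 5 genes of CDC45 and GINS, 8 polymerase and primase genes, 6 genes of the sliding clamp and its loader, 3 RPA genes, 2 genes of lagging strand processing, 4 genes of nucleotide supply and UHRF1.

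SAP30, SIN3A and SIN3B, a subunit and the scaffold proteins of the SIN3 corepressor, were immunoprecipitated from parental cells. Polymerase II (Pol II), H3K4me3 and H3K9Ac, found at active promoters, were followed in parental cells and in SAP30-KO1, a derivative in which SAP30 was knocked out by CRISPR/Cas9 and which, per the study's methods, was a mixture of single-cell clones. This gave 9 groups of 2 libraries, and peak summits were listed for each of the 18 libraries separately. Nothing in the labels says whether the 2 libraries of a group came from separate cultures, so the p-values below measure the spread between libraries, which may be technical.

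E2F factors bind promoters of genes needed for entry into S phase. In resting cells E2F4 and the pocket proteins of the RB family hold many of these genes down, in part through SIN3 and histone deacetylases, and in late G1 cyclin E and its kinase release the activators E2F1, E2F2 and E2F3. Their targets then license origins (ORC, CDC6, CDT1 and the MCM helicase), open them (CDC45 and GINS) and copy the DNA (polymerases, clamp and loader, RPA, ligase), while ribonucleotide reductase, thymidylate synthase and thymidine kinase supply nucleotides.

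For each gene and library the best-scored summit within 1000 bp of a transcription start site was taken, and its score was turned into a rank within its list, from 0% for the strongest peak to 100% for the weakest. A higher rank in percent is a weaker peak among the peaks of that library. The lists held 10861 to 54622 summits, and since the sequencing depth behind them is unknown, no interval for counting error is given. The 3 mesenchymal genes VIM, CD44 and AXL all had a Pol II and an H3K4me3 promoter peak in both parental libraries, whereas of the luminal genes ESR1, PGR, GATA3 and FOXA1 none of the 4 had one for Pol II and 3 had one for H3K4me3. At the promoter of SAP30 itself, the knocked-out gene, Pol II ranked at 10.2% and 5.40% in parental and 3.75% and 23.9% in SAP30-KO1 libraries, and peak lists cannot show whether the protein was lost. A start site of another protein-coding gene lay within 1000 bp of a start site of 18 of the 47 genes, among them MCM4 (PRKDC), CDC45 (UFD1), ORC6 (VPS35), FEN1 (TMEM258), POLE (PXMP2) and TK1 (AFMID), and a peak there cannot be assigned to 1 of the neighbours.

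The DNA at the SAP30 summits was read from GRCh37, the build of the summit coordinates. Windows of 100 bp to either side of the best SAP30 summit of each gene were searched on both strands for 4 words of 8 letters that fit the E2F consensus, TTTCCCGC, TTTGGCGC, TTTCGCGC and TTTGCCGC. Around the summits of replicate 1 such a word was present at 17 of the 47 genes (36.2%) and around those of replicate 2 at 16 (34.0%), with 14 genes in common. Over all protein-coding genes with a SAP30 promoter summit the shares were 3.09% of 12605 for replicate 1 and 2.88% of 12521 for replicate 2. The 14 genes were E2F1, E2F3, E2F8, MCM2, MCM3, CDC6, CDT1, GINS3, PCNA, RFC3, POLD3, POLE, POLE2 and UHRF1. The same words stood near 14 of 41 SIN3A summits of replicate 1, against 3.75% of all genes, near 17 of 47 SIN3B summits of replicate 1, against 3.78%, and near 12 of 46 parental Pol II summits of replicate 1, against 2.98%. A match is a run of letters and not evidence of binding by an E2F protein.

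**Figure D1:**
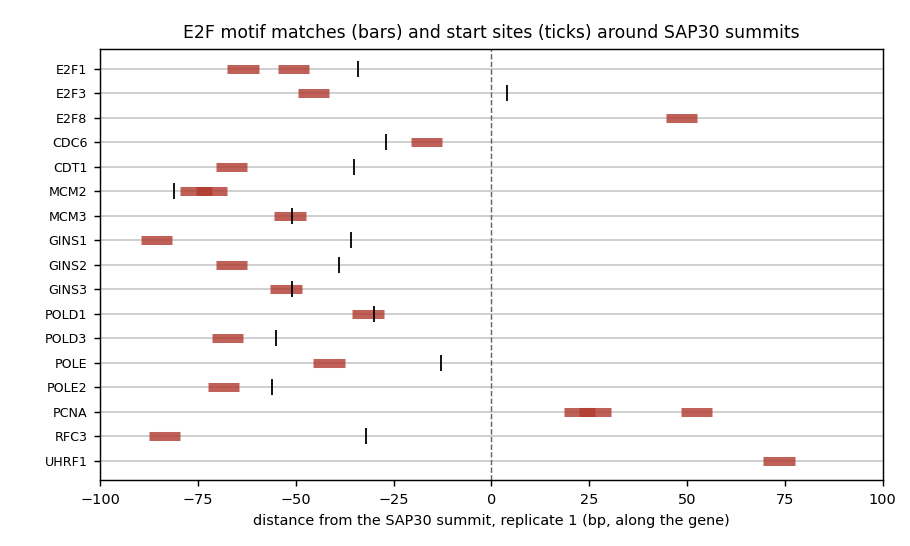
Position of the E2F words (red bars) along the 17 genes that held one, in bp from the SAP30 summit of replicate 1 (dashed line at 0, negative values upstream). A black tick marks the annotated start site nearest to the summit where it lay inside the window, and further start sites are not drawn. Most words lay upstream of the summit, and those of E2F8, PCNA and UHRF1 lay downstream of it.

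The CCAAT box, the CHR element TTTGAA and the GC box GGGCGG were searched in the same windows and on both strands. At the SAP30 summits of replicate 1 they were found at 9, 3 and 20 of the 47 genes. Over all genes with a SAP30 promoter summit the shares were 11.8%, 3.44% and 58.0%, against 19.1%, 6.38% and 42.6% for the set. At SIN3A summits of replicate 1 the CCAAT box was found at 15 of 41 genes (36.6%), against 13.5% of all genes. The median GC content of the windows at the SAP30 summits of replicate 1 was 67.7% for the set and 70.6% for all genes.

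Sequences are shown for 6 genes to which the results below return, 5′ to 3′ on the strand of the gene, with the E2F words in capitals. For CDC6, CDT1, MCM10 and CDC45 the stretch runs from 150 bases before to 30 bases into the first start site near the SAP30 summit, and those 30 bases are 5′ UTR. For PCNA and UHRF1, whose summits lay 559 bp after and 232 bp before the nearest start site, it is the window around the summit, which in both cases lies within the annotated gene, outside every exon.
CDC6 (chr17:38443981-38444160, plus strand, 1 word): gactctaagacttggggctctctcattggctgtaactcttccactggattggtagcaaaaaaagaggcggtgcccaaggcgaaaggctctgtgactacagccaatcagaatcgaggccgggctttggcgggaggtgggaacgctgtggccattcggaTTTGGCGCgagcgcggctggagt
CDT1 (chr16:88870047-88870226, plus strand, 1 word): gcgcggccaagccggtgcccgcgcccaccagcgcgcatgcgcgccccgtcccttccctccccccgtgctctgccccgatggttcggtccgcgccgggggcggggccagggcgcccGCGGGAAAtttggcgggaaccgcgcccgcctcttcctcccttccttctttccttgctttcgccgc
PCNA (chr20:5099945-5100145, minus strand, 3 words, of which 2 overlap): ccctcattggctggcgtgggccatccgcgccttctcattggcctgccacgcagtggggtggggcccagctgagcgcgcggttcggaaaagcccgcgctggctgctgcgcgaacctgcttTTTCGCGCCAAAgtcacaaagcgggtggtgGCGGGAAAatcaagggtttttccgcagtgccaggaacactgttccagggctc
UHRF1 (chr19:4909826-4910026, plus strand, 1 word): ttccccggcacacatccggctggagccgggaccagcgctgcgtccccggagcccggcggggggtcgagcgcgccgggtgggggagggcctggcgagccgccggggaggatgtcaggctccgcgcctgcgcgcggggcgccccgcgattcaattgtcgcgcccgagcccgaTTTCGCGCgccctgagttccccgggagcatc
MCM10 (chr10:13203408-13203587, plus strand, no word): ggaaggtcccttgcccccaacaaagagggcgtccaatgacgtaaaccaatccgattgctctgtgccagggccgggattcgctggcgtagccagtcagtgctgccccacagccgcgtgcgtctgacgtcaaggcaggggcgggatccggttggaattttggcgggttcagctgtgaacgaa
CDC45 (chr22:19467199-19467378, plus strand, no word): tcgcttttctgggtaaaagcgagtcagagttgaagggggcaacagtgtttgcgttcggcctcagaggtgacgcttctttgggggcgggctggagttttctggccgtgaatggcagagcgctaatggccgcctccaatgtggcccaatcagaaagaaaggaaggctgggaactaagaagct
MCM10, whose SAP30 peak was the strongest of the set, thus held none of the 4 words in the stretch shown or near its summit, while PCNA held 3. Only exact matches to the 4 words were counted. Near matches, such as tttggcggg in the stretches of MCM10, CDC6 and CDT1, were not.

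SAP30 and SIN3B were found at the promoter of all 47 genes in both replicates, and SIN3A at 38 (80.9%). SAP30 was found in this way at 61.2% of all protein-coding genes, SIN3B at 51.7% and SIN3A at 31.5%. Among the 12821 genes with an H3K4me3 promoter peak in both parental libraries, which every gene of the set had, they were 93.9%, 79.6% and 48.6%. All 3 proteins were present together at 38 genes of the set, against 46.8% of those 12821 genes. SIN3A was missing from both lists at E2F2, GINS3, POLA1, POLA2 and PRIM1 and from 1 list at RFC1, PRIM2, RPA2 and POLD1. Of these 9 genes, 4 code for subunits of the DNA polymerase alpha and primase complex, which makes the primers, and these are all of its subunits.

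SAP30 presence at all 47 genes was near the 93.9% found among genes with an H3K4me3 promoter peak in both parental libraries. In the strength of its SAP30 peaks the set differed from all genes. The median rank of its best SAP30 summit was 4.46% in replicate 1 and 3.67% in replicate 2, against 16.8% and 17.3% over all genes with a SAP30 promoter peak in both. For SIN3A the medians were 14.5% and 13.9% against 31.4% and 31.7%, and for SIN3B they were 10.7% and 13.3% against 18.8% and 21.3%. In all 6 lists the set ranked better than the genes at large. A SAP30 peak within the best 1% of both lists was found at 14 of the 47 genes, against 2.36% of all genes with a peak in both. For SIN3A 4 of 38 genes were within the best 1% of both lists (E2F3, MCM7, MCM10 and ORC6), against 1.15% of all genes, and for SIN3B none of 47 was, against 1.85%.

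**Figure D2:**
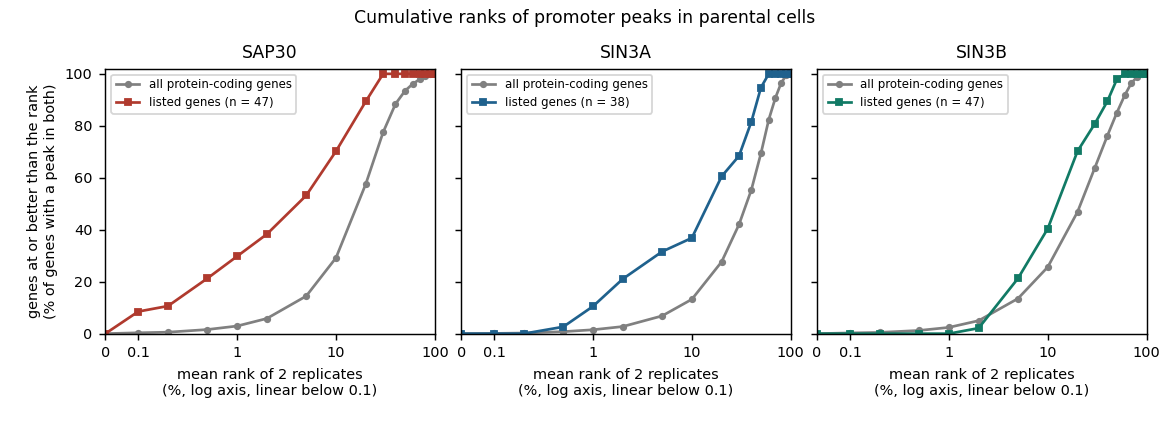
Share of genes (vertical axis, % of genes with a promoter peak in both replicates) whose mean rank over the 2 replicates was at or better than the value on the horizontal axis (%, log scale above 0.1), for the listed genes (colour) and all protein-coding genes (grey). At a mean rank of 10%, 70.2% of the listed genes against 29.2% of all genes were reached for SAP30, 36.8% against 13.2% for SIN3A and 40.4% against 25.6% for SIN3B.

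MCM10, which loads onto the helicase at firing origins, had the strongest SAP30 peak of the set, at positions 3 and 14 of the 35001 and 35007 summits of the lists. CDC6, the ATPase that loads the MCM helicase, held positions 9 and 47, and ORC6, the smallest subunit of the origin recognition complex, positions 10 and 17. E2F1 was at positions 25 and 140, RRM2, the regulated subunit of ribonucleotide reductase, at 35 and 33, and CCNE2 at 54 and 67. The others within the best 1% of both lists were MCM7, E2F3, E2F8, LIG1, CDC45, RFC3, PCNA and CDT1. They came from 8 of the 11 roles, and the polymerases, RPA and UHRF1 had none. Several genes within the best 1% have a start site of another protein-coding gene within 1000 bp of one of their own. These are CCNE2 (NDUFAF6), MCM7 (AP4M1), ORC6 (VPS35), CDC45 (UFD1), LIG1 (ZSWIM9) and PCNA (CDS2).

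**Figure D3:**
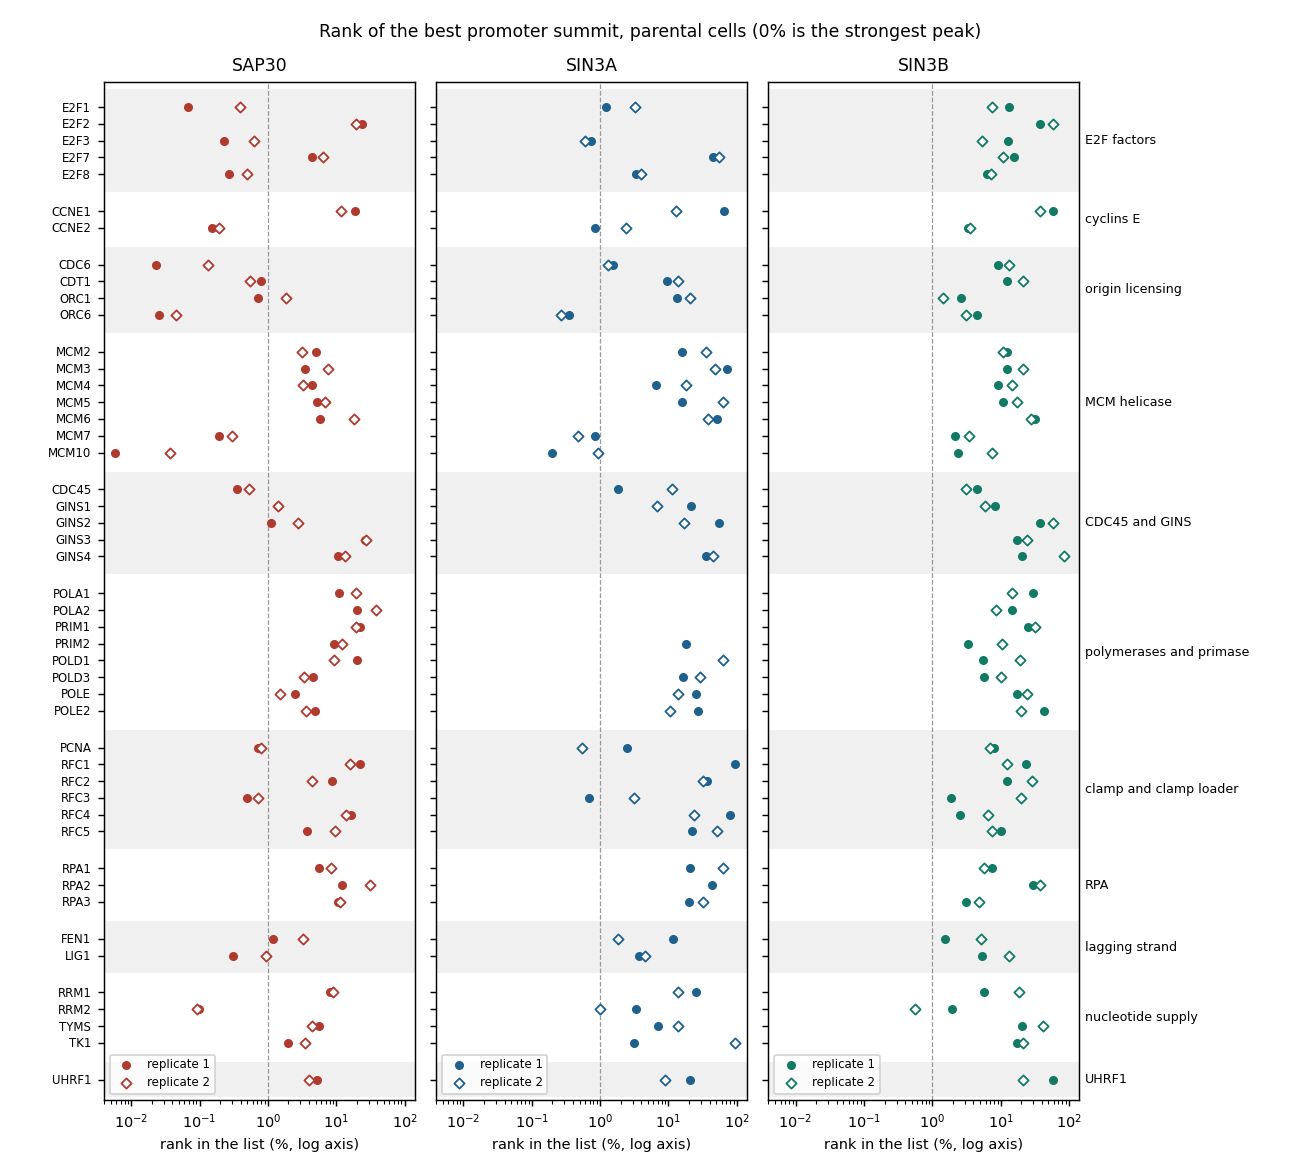
Rank of the best promoter summit of each of the 47 genes (rows, grouped by role) in the SAP30, SIN3A and SIN3B lists (panels), on a log axis in %, with replicate 1 as filled circles and replicate 2 as open diamonds. The dashed line marks 1%, left of which 14 genes lie in both SAP30 lists, and rows with no point or a lone point in the SIN3A panel are the 9 genes without a SIN3A peak in both.

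Among the E2F factors, the activators E2F1 and E2F3 and the atypical repressor E2F8 had strong peaks, and E2F2 had weak ones. E2F1 ranked at 0.0686% and 0.397% in the SAP30 lists, 1.22% and 3.27% in the SIN3A lists and 13.2% and 7.40% in the SIN3B lists. E2F3 ranked at 0.227% and 0.623%, 0.738% and 0.594%, and 13.0% and 5.29% in the same order. E2F8 was at 0.266% and 0.494% in the SAP30 lists, 3.38% and 3.93% in the SIN3A lists and 6.36% and 7.34% in the SIN3B lists. E2F7, the other atypical repressor, was at 4.46% and 6.41% for SAP30 and among the weaker SIN3A peaks, at 44.9% and 54.5%. E2F2 was at 23.6% and 19.7% for SAP30 and 37.5% and 58.6% for SIN3B. The E-type cyclins differed in the same manner. CCNE2 ranked at 0.151% and 0.190% for SAP30 and CCNE1 at 18.7% and 11.6%, and for SIN3B they ranked at 3.38% and 3.56% and at 58.7% and 37.8%.

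Origin licensing was the role with the best median mean rank for SAP30, 0.372%, and all 4 of its genes had all 3 proteins. CDC6 ranked at 0.0229% and 0.131% for SAP30, with SIN3A at 1.55% and 1.29% and SIN3B at 9.16% and 13.3%. ORC6 was at 0.0257% and 0.0457% for SAP30 and 0.346% and 0.267% for SIN3A. CDT1, which brings the helicase to the origin, was at 0.790% and 0.543% for SAP30 and 9.50% and 13.9% for SIN3A, and ORC1 was at 0.706% and 1.84% for SAP30 and 2.66% and 1.41% for SIN3B. The 7 MCM genes also had all 3 proteins. MCM10 ranked at 0.00571% and 0.0371% for SAP30 and 0.198% and 0.939% for SIN3A, and MCM7 at 0.194% and 0.297% for SAP30 and 0.850% and 0.479% for SIN3A. The remaining helicase genes, MCM2 to MCM6, were weaker, with SAP30 ranks between 3.13% and 18.2% and SIN3A ranks between 6.57% and 71.1%.

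CDC45 and GINS complete the active helicase, and their genes were spread widely. CDC45 ranked at 0.351% and 0.527% for SAP30 and 1.82% and 11.4% for SIN3A, and GINS1 at 1.39% in both SAP30 lists. GINS2 was at 1.10% and 2.78% and GINS4 at 10.6% and 13.5%. GINS3 was among the weakest SAP30 peaks of the set, at 26.4% and 27.6%, and had no SIN3A peak. The polymerase and primase genes had the weakest SAP30 peaks by role, with a median mean rank of 12.8% and a range of mean ranks from 1.99% for POLE to 29.0% for POLA2. SIN3A was in both lists at 3 of these 8 genes, POLD3, POLE and POLE2. The 9 genes without SIN3A in both lists had SAP30 ranks from 9.44% to 26.4% in replicate 1 and from 9.37% to 37.9% in replicate 2, with medians of 20.2% and 19.5%. Their SIN3B ranks spanned 3.38% to 37.5% and 8.53% to 58.6%. The SIN3A lists were the shortest of the 3 proteins. With all 6 lists limited to the length of the shortest, SAP30 was present in both lists at 45 genes, SIN3B at 41 and SIN3A at 38.

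PCNA, the sliding clamp, ranked at 0.709% and 0.788% for SAP30 and 2.51% and 0.543% for SIN3A. Of the clamp loader genes RFC3 was the strongest, at 0.503% and 0.718% for SAP30, and RFC1, the large subunit, the weakest, at 22.0% and 16.2%. RFC2, RFC4 and RFC5 had SAP30 ranks between 3.70% and 16.3% in replicate 1 and between 4.35% and 14.0% in replicate 2. The RPA genes, whose products coat single-stranded DNA, had SAP30 ranks of 5.59% and 8.37% (RPA1), 12.3% and 31.7% (RPA2) and 10.8% and 11.5% (RPA3). LIG1, the replicative ligase, was at 0.313% and 0.948% and FEN1, the flap endonuclease, at 1.17% and 3.31%. RRM2 ranked at 0.0971% and 0.0914% for SAP30, and at 1.97% and 0.558% for SIN3B, the best mean SIN3B rank of the set. RRM1, the large subunit of the same enzyme, was at 8.11% and 8.93% for SAP30, TYMS (thymidylate synthase) at 5.68% and 4.38% and TK1 (thymidine kinase) at 1.95% and 3.50%. UHRF1, which reads hemimethylated DNA behind the fork, was at 5.16% and 3.94% for SAP30.

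SAP30 summits sat close to the start sites. Within 100 bp of a start site lay 35 (74.5%) and 37 (78.7%) of the 47 best SAP30 summits in replicates 1 and 2, against 43.8% and 45.1% over all genes with such a summit. The 2 replicates placed the SAP30 summit within 100 bp of each other at 45 of the 47 genes, with a median distance of 28 bp. From the SAP30 summit of replicate 1 the median distance to the SIN3A summit of replicate 1 was 32 bp and to the SIN3B summit of replicate 1 it was 57 bp, against 74 bp and 148 bp over all genes. The 17 genes with an E2F word at the SAP30 summit of replicate 1 had a median SAP30 rank of 1.39% in that list and 1.49% in the other, and the 30 without had 5.64% and 7.62%. For SIN3B the order was the opposite, with 12.4% and 19.2% for the 17 genes and 9.64% and 11.7% for the 30. Over all genes the SAP30 medians were 13.7% and 13.5% for the 390 with the word and 17.3% and 17.4% for the 12215 without. The SIN3B medians over all genes were 15.5% and 18.6% with the word and 20.6% and 22.7% without. The opposite order for SIN3B was thus seen within the set and not over all genes.

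In parental cells the set did not stand out for Pol II or the histone marks in the way it did for SAP30. The median Pol II rank was 27.2% and 25.1% in the 2 parental libraries, against 27.2% and 24.1% over all genes with a peak in both. For H3K4me3 the medians were 20.5% and 21.2% against 24.0% and 25.9%, and for H3K9Ac 13.0% and 15.0% against 11.9% and 12.3%. The strongest parental Pol II peak of the set was at RRM2, at 2.03% and 1.85%, followed by PCNA, CCNE2 and E2F7, and the E2F3 promoter carried the strongest H3K9Ac peak, at 0.104% and 0.0168%. Pol II peaks of MCM7 and GINS1 lay more than 1000 bp from the SAP30 summit in both replicates, at another start site of the same gene. Both genes also have a start site of a neighbour within 1000 bp of one of their own, AP4M1 and ABHD12. In MCM10, Pol II ranked at 47.9% and 26.2%, far down a list from where its SAP30 peak stood.

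Whether loss of SAP30 altered these promoters was asked by comparing parental with SAP30-KO1 libraries. No gene of the set lost or gained a Pol II, H3K4me3 or H3K9Ac promoter peak, where a loss meant a peak in both parental and neither SAP30-KO1 library. Over all protein-coding genes 2.33% of those with a parental Pol II peak lost it and 0.337% of those without gained one. The same shares were 1.44% and 0.299% for H3K4me3 and 0.689% and 0.909% for H3K9Ac. A peak in all 4 lists, which the comparison of ranks needs, was present at 43 genes in Pol II, 47 in H3K4me3 and 46 in H3K9Ac. For Pol II, MCM5, GINS2 and RFC3 lacked a peak in SAP30-KO1 replicate 2 alone, so that all 3 would count as lost without SAP30-KO1 replicate 1, and E2F2 had one in parental replicate 2 (78.3%) and SAP30-KO1 replicate 1 (97.7%). For H3K9Ac, UHRF1 had a peak in parental replicate 2 (7.54%) and SAP30-KO1 replicate 1 (8.49%).

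By limma, fitted to the ranks over all genes with a peak in all 4 lists and adjusted by Benjamini-Hochberg, no gene of the set differed between SAP30-KO1 and parental cells in any of the 3 marks, and the lowest adjusted p was 0.686 (Pol II), 0.447 (H3K4me3) and 0.658 (H3K9Ac). At an unadjusted p under 0.05 there were 4 of 43 genes for Pol II (CDC6, MCM3, CDC45 and GINS1), 5 of 47 for H3K4me3 (POLA2, CDT1, E2F2, MCM10 and E2F8) and 2 of 46 for H3K9Ac (FEN1 and RRM2). Over all genes tested 6.82%, 8.93% and 7.39% were under it. In simulated data with the spread of these libraries, changes of the sizes tried were mostly missed by this test, for Pol II at every size. Several of the changes given below were smaller than any size tried. The absence of calls therefore does not show that ranks did not differ. The adjusted test called few genes at large. For Pol II it called 0% in either direction of 10702 genes, for H3K4me3 0.75% weaker and 0.016% stronger of 12527, and for H3K9Ac 0% weaker and 0.0083% stronger of 12044. With 2 libraries against 2, an exact permutation test of a single gene cannot go below a p of 0.33, and the values that follow are descriptions.

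Pol II ranks of the set were on the whole weaker in SAP30-KO1. The median of the 43 genes was 26.4% and 19.8% in parental and 30.7% and 33.3% in SAP30-KO1 libraries, and the median change, SAP30-KO1 minus parental, was 7.56 percentage points against 1.48 over all genes tested. Both SAP30-KO1 ranks were weaker than both parental ranks at 17 of 43 genes (39.5%), against 24.2% of all genes, and both were stronger at 6 (14.0%), against 15.4%. With the most upstream start site alone, 14 of 38 genes were weaker and 3 stronger without overlap, against 24.3% and 15.0% of all genes. With the median of the chromosome arm subtracted, 13 of 43 were weaker and 7 stronger, against 18.4% and 21.5%. The median change was then 5.15 points. With ranks among tested genes, 12 were weaker and 6 stronger, against 20.2% and 20.1%, and the median change was 7.16. The size of the median change rested on 1 library. Without SAP30-KO1 replicate 2 it was 2.17 over 46 genes, against 0.0997 over all. The Spearman correlation across 10702 genes, which are not independent replicates, was 0.702 between the SAP30-KO1 libraries and 0.843 between the parental libraries.

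**Figure D4:**
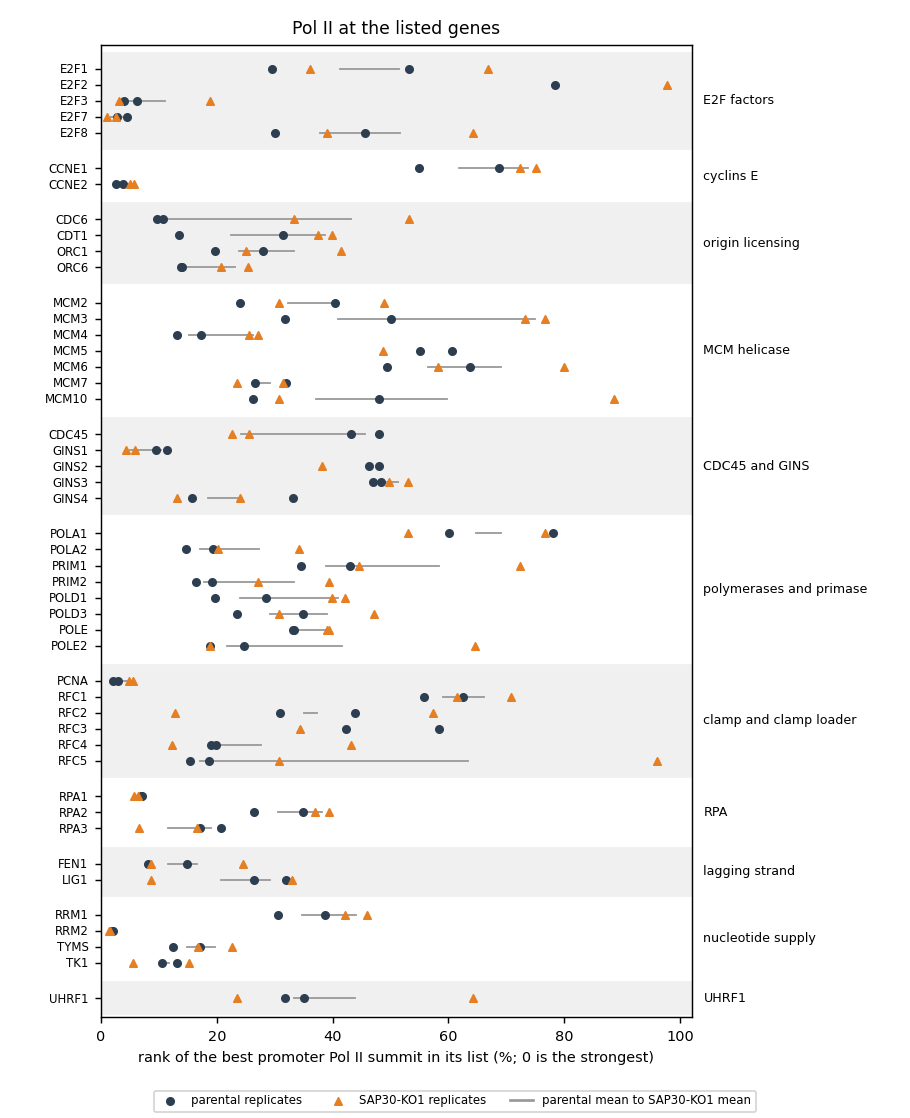
Rank of the best Pol II promoter summit (horizontal axis, %) of each of the 47 genes (rows, by role) in the 2 parental (circles) and 2 SAP30-KO1 libraries (triangles), with a grey line from the parental to the SAP30-KO1 mean where all 4 lists held a peak. Triangles lie to the right of both circles at 17 genes, as at CDC6, MCM3 and RFC5, and to the left at 6, as at CDC45 and GINS1.

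The 3 genes with the greatest weakening among those whose groups did not overlap were RFC5, MCM3 and CDC6. RFC5, a small subunit of the clamp loader, ranked at 15.3% and 18.7% in parental and 30.7% and 96.0% in SAP30-KO1 libraries, a change of 46.4 ± 19.8 percentage points (SE, limma adjusted p = 0.686). Its SAP30-KO1 libraries lay farther apart than the groups did, and RFC5 passed the test once, when SAP30-KO1 replicate 1 was left out, with a change of 79.0 and a limma adjusted p of 0.0281. In that fit the lone SAP30-KO1 library was the one with RFC5 at 96.0%, the spread came from the parental pair only, and 2.26% of all 10859 genes passed, so the call is no replicate check of RFC5. MCM3, a subunit of the helicase ring, ranked at 31.8% and 50.1% in parental and 76.6% and 73.2% in SAP30-KO1 libraries (change 34.0 ± 12.2, limma adjusted p = 0.686). CDC6 ranked at 9.69% and 10.7% in parental and 53.2% and 33.3% in SAP30-KO1 libraries (change 33.0 ± 10.3, limma adjusted p = 0.686). Its parental libraries lay close together and both SAP30-KO1 libraries far from them. The E2F word in the sequence shown for CDC6 lies between its first start site and its SAP30 summit. Whether E2F words went with changes in rank was not tested.

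In the other direction CDC45 ranked at 47.9% and 43.2% in parental and 22.7% and 25.6% in SAP30-KO1 libraries (change -21.4 ± 8.81, limma adjusted p = 0.686), at a Pol II summit 305 bp upstream of a CDC45 start site and near UFD1. RPA3 ranked at 20.7% and 17.1% in parental and 6.59% and 16.5% in SAP30-KO1 libraries (change -7.33 ± 6.04, limma adjusted p = 0.765). Its SAP30-KO1 replicate 2 lay close to the parental values, and without SAP30-KO1 replicate 1 the change was -2.36. GINS1 ranked at 11.3% and 9.47% in parental and 4.22% and 5.89% in SAP30-KO1 libraries (change -5.35 ± 2.21, limma adjusted p = 0.686). With the most upstream start site in place of all start sites, the GINS1 change was 0.10, so its direction depended on the start site. RPA3 and GINS1 also have a start site of another protein-coding gene within 1000 bp of one of their own, UMAD1 and ABHD12.

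By role, origin licensing was weaker in mean Pol II rank at 4 of 4 genes, against 57.7% of all genes tested, with a median change of 12.8 points and 3 genes without overlap, against 24.2% of all genes. ORC6 ranked at 13.9% in both parental and at 20.7% and 25.4% in SAP30-KO1 libraries, and CDT1 at 31.4% and 13.5% in parental and 39.9% and 37.5% in SAP30-KO1 libraries. Both lie on 16q with GINS3, the arm on which the median change of the 220 other genes tested was 8.17 points. The polymerase and primase genes were weaker in mean rank at 7 of 8 genes (median change 12.8), beside the same 57.7% and 24.2%, 5 of them without overlap, POLA2, PRIM1, PRIM2, POLD1 and POLE. POLA2, with the best mean parental Pol II rank of these, ranked at 19.4% and 14.7% in parental and 20.2% and 34.2% in SAP30-KO1 libraries, and its arm, 11q, had a median change of 9.94 points over 399 other genes. Other roles went the opposite way. CDC45 and GINS had a median change of -5.60 points and were weaker in mean rank at 1 of 4 genes, beside the same 57.7%. For RPA the median was -0.950 (1 of 3 genes) and for lagging strand processing -1.69 (1 of 2). Medians of the remaining roles lay between 2.21 points for nucleotide supply and 11.9 for the MCM genes. Outside 11q and 16q, 13 of 37 genes of the set (35.1%) were weaker without overlap, against 22.6% of all genes outside these arms, and the median change was 7.55 against 1.10. The part of the arms in these results was not tested further.

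MCM4, the MCM gene with the best parental Pol II rank, was at 17.2% and 13.0% in parental and 27.1% and 25.5% in SAP30-KO1 libraries, at a promoter shared with PRKDC. PCNA was at 1.97% and 2.97% in parental and 4.82% and 5.57% in SAP30-KO1 libraries, and CCNE2 at 3.74% and 2.59% and at 5.67% and 4.96%. At both of these strong peaks the groups did not overlap, with changes of 2.73 and 2.15 points. Other strong Pol II peaks ranked slightly better in SAP30-KO1, again without overlap. RRM2 was at 2.03% and 1.85% in parental and 1.50% and 1.40% in SAP30-KO1 libraries, E2F7 at 4.40% and 2.78% and at 2.52% and 1.03%, and RPA1 at 6.90% and 7.10% and at 6.42% and 5.68%. FEN1 was at 8.12% and 14.8% in parental and 24.5% and 8.65% in SAP30-KO1 libraries and UHRF1 at 35.0% and 31.8% and at 23.4% and 64.2%, and in both the groups overlapped.

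The 8 genes without SIN3A in both lists that could be compared for Pol II had a median change of 8.85 points, and the 35 with SIN3A had 7.55. Their ranks were weaker without overlap at 6 of 8 and 11 of 35 genes, against 24.2% of all genes, and this difference was noticed in the data and not tested. For H3K4me3 the counts were 4 of 9 and 15 of 38, against 28.2%, and for H3K9Ac 3 of 9 and 7 of 37, against 22.1%.

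H3K4me3 was present at every gene of the set in every library, and its ranks were also on the whole weaker in SAP30-KO1. The median of the 47 genes was 20.5% and 21.2% in parental and 21.9% and 22.0% in SAP30-KO1 libraries. Over all genes tested it was 23.5% and 25.3% in parental and 27.2% and 24.3% in SAP30-KO1 libraries. The median of the gene-by-gene changes was 4.95 points, against 2.09 over all genes tested, and after subtraction of the median of the chromosome arm it was 2.81. Both SAP30-KO1 ranks were weaker at 19 of 47 genes (40.4%), against 28.2% of all genes, and both were stronger at 4 (8.51%), against 11.5%. With the arm median subtracted from each change, 13 genes were weaker and 6 stronger without overlap, against 18.04% and 17.3% of all genes. Of the 7 MCM genes, 5 (MCM2, MCM4, MCM5, MCM6 and MCM7) were weaker without overlap, as were 4 of 8 polymerase and primase genes (POLA1, POLA2, PRIM1 and POLE).

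**Figure D5:**
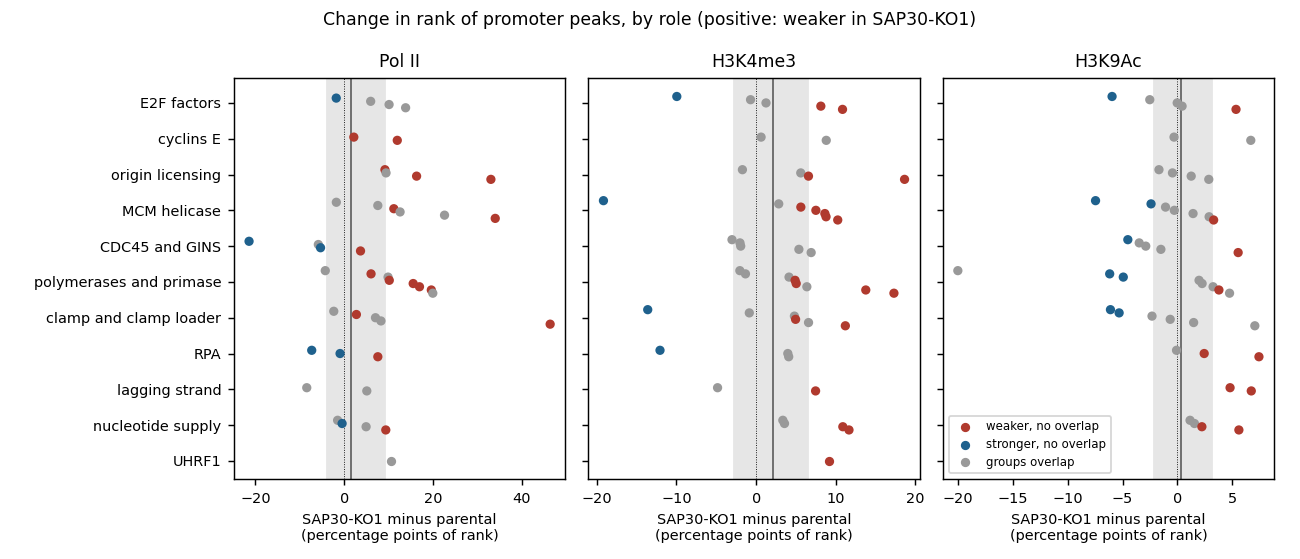
Change in rank, SAP30-KO1 minus parental, in percentage points (horizontal axis, scaled separately in each panel) of every gene of the set with a peak in all 4 lists, by role, for Pol II, H3K4me3 and H3K9Ac. Red points are genes weaker and blue points genes stronger in SAP30-KO1 with no overlap of the 2 groups, grey points overlap, and the line and grey band give the median and the middle 50% of all protein-coding genes tested. Medians of the set were 7.56, 4.95 and 0.783 points, against 1.48, 2.09 and 0.310 over all genes, and the H3K9Ac median was below 0 with the arm median subtracted or with ranks among tested genes.

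CDT1 had the greatest H3K4me3 weakening, from 17.3% and 11.7% in parental to 38.6% and 27.6% in SAP30-KO1 libraries (18.6 ± 8.56 points, limma adjusted p = 0.517), on 16q, where the median change of the 251 other genes was 4.77 points. POLA2 was at 12.6% and 28.1% in parental and 42.8% and 32.5% in SAP30-KO1 libraries (17.3 ± 7.18, limma adjusted p = 0.447), on 11q, where the median of the others was 8.54. POLE, the catalytic subunit of the leading strand polymerase, was at 14.0% and 2.81% in parental and 15.0% and 29.3% in SAP30-KO1 libraries (13.8 ± 8.96, limma adjusted p = 0.665). The parental libraries of POLE spanned more than the gap between the groups.

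MCM10, RFC1 and RPA3 had stronger H3K4me3 ranks in SAP30-KO1. MCM10 was at 29.9% and 31.6% in parental and 8.86% and 14.3% in SAP30-KO1 libraries (-19.2 ± 9.05 points, limma adjusted p = 0.531). RFC1 was at 23.4% and 17.3% and at 9.55% and 3.88% (-13.6 ± 8.17, limma adjusted p = 0.638), and RPA3 at 16.9% and 36.6% and at 14.0% and 15.4% (-12.1 ± 9.37, limma adjusted p = 0.726). Of these, MCM10 had tight parental values, and RPA3 had 1 parental library close to the SAP30-KO1 values. E2F1 was the fourth gene without overlap, at 17.8% and 27.4% in parental and 14.0% and 11.3% in SAP30-KO1 libraries. E2F8 went the opposite way, at 1.67% and 0.746% in parental and 19.3% and 4.80% in SAP30-KO1 libraries.

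H3K9Ac showed no shift of the set beyond that of all genes. The median of the 46 genes was 13.0% and 15.0% in parental and 14.1% and 13.3% in SAP30-KO1 libraries, and the median change was 0.783 points against 0.310. Ranks were weaker without overlap at 10 of 46 genes (21.7%), against 22.1% of all genes, and stronger at 8 (17.4%), against 16.4%. Minus the arm median these counts were 8 and 10, against 18.8% and 18.5% of all genes, and the median change was -0.23. With ranks among the tested genes they were 7 and 9, against 19.3% and 19.1%, and the median change was -0.074, so the direction of this small shift depended on the scaling. RPA2 was at 14.5% and 16.1% in parental and 23.8% and 21.6% in SAP30-KO1 libraries (7.42 ± 3.94 points, limma adjusted p = 0.691). FEN1 was at 1.47% and 1.96% and at 7.01% and 9.86% (6.72 ± 1.78, limma adjusted p = 0.658), on 11q, where the median change of the 467 other genes was 5.11. RRM2 was at 1.85% and 3.73% and at 10.9% and 5.88% (5.59 ± 2.17, limma adjusted p = 0.659).

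MCM10, POLE and RFC2 had the greatest strengthening of H3K9Ac without overlap. MCM10 was at 23.8% and 27.6% in parental and 15.3% and 21.2% in SAP30-KO1 libraries (-7.46 ± 4.31 points, limma adjusted p = 0.704). POLE was at 8.63% and 19.9% and at 8.01% and 8.20% (-6.17 ± 4.25, limma adjusted p = 0.729), and RFC2 at 17.3% and 15.6% and at 11.9% and 8.78% (-6.10 ± 3.79, limma adjusted p = 0.711). The parental libraries of POLE spanned more than the gap between its groups. Without parental replicate 2 the POLE change was -0.52. The E2F3 H3K9Ac peak stayed near the top of every list, at 0.104% and 0.0168% in parental and 0.0197% and 0.0531% in SAP30-KO1 libraries.

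Of the 42 genes tested in all 3 marks, 12 were weaker without overlap in at least 2, against 15.8% of the 10390 genes tested in all 3, and PRIM1 was weaker in all 3, against 2.93%. With E2F2, not tested for Pol II, the genes weaker in at least 2 marks were E2F2, MCM2, MCM4, CDC6, CDT1, PCNA, RFC5, POLA2, PRIM1, POLE, FEN1, RPA2 and RRM2. MCM10, E2F1 and RFC1 were stronger without overlap in both histone marks, and RPA3 in Pol II and H3K4me3, which makes 4 of 42, against 8.12%. In 6 of 42 genes (MCM4, GINS1, POLD1, POLE, RPA3 and RRM2) the marks went in opposite directions without overlap, against 11.3%. Of the 3 genes with the best SAP30 positions in replicate 1, MCM10 had stronger histone mark ranks in SAP30-KO1, CDC6 had weaker Pol II and H3K4me3 ranks and ORC6 had weaker Pol II ranks. The Pol II ranks of MCM10 overlapped, at 47.9% and 26.2% in parental and 30.7% and 88.6% in SAP30-KO1 libraries, a mean change of 22.6 points.

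Other genes of the pathway, counted from 3 further lists, were compared in the same way. The RB family and the DREAM complex repress E2F targets in resting cells. Of 12 genes listed with them here, E2F6 and other E2F factors included, 11 had SAP30, 8 SIN3A and 12 SIN3B in both replicates. Of 9 G1/S kinases, cyclins and inhibitors, 8, 7 and 9 had them, and of 25 further replication genes, 25, 20 and 22. The median SAP30 ranks in replicates 1 and 2 were 7.31% and 8.44% for the list with the RB family and DREAM. They were 8.78% and 14.6% for the kinases, cyclins and inhibitors. For the further replication genes they were 3.28% and 3.40%, against 4.46% and 3.67% for the 47. The medians of the further replication genes were thus slightly better than those of the set. Among the kinases, cyclins and inhibitors the ranks ran from 0.0629% and 0.100% at CDC25A, the phosphatase that activates the S phase kinase, to 32.0% and 17.4% at CDKN1B, an inhibitor, and CCND1 lacked a peak in replicate 1. None of these 46 genes was called by limma in any mark. The median Pol II change was 2.70 points over 11 genes of the list with the RB family and DREAM. It was 0.574 over 9 kinases, cyclins and inhibitors and 1.08 over 24 replication genes. In the same order, Pol II was weaker without overlap at 3, 1 and 7 genes and stronger at 2, 2 and 4, against 24.2% and 15.4% of all genes.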

How the data were processed

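ChIP-seq libraries were grouped by antibody and cell line as given in the labels. Another 12 samples, of input and of total H3, are not analysed here. The deposited files are lists of summits 1 bp wide, called by the authors in each library by itself, and the deposited score is the −log10 of the q-value, of which the weakest was 0.0499. The submitters' processing notes name FastQC 0.11.2, Bowtie2 2.3.3.1, Picard, MACS2 2.1.0 and hg19. Filters and the control of each list are not given in the sources used here. Number and score of peaks depend on depth and enrichment, which are unknown here, so scores were used only as ranks within a list, with ties averaged.

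Basic transcripts of protein-coding genes in GENCODE release 44, lifted to GRCh37, gave the start sites, and sequences were read from GRCh37. Ranks were fitted with limma 3.58.1 (R 4.3.3) with a mean-variance trend, two-sided, at an adjusted p of 0.05, separately for each mark and with no covariate. The fit was tested on simulated data. At the spread of the real libraries it missed most changes, for Pol II all. It recovered most of them when the spread between libraries was made small, a setting added after that outcome was seen. Genes are grouped by role. Values in every library were given, for the antibody in question, for the 3 genes per mark with the greatest weakening and strengthening among those whose groups did not overlap and for the gene of each role with the best parental Pol II rank, and as ranges for the genes without SIN3A in both lists. Others (E2F1, E2F3, E2F8, MCM7 and the like) were named after their values were seen. The members and lists were chosen with earlier results of these data known, so no test was run over them.

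Same-numbered libraries of the 2 lines did not deviate together (correlations across genes of 0.00753 in Pol II, -0.0189 in H3K4me3 and -0.0136 in H3K9Ac), so they were not paired. Alternatives were promoter windows of 500 and 3000 bp, the better-ranked 50% of each list, 1 of 2 replicates, lists of equal length, ranks among tested genes, ranks minus the arm median, the most upstream start site, normal and log2 scores, no trend, a replicate block and each replicate left out. Counts of genes without overlap, and values without 11q and 16q, were added after seeing the data.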

Additional observations from a re-analysis of the deposited data

How the results depend on the processing

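All presence counts stayed within 1.5 times of those reported under the alternatives tried (45 to 47 genes for SAP30, 28 to 42 for SIN3A, 41 to 47 for SIN3B). In a window of 500 bp the median parental rank of the set was 5.03% for SAP30, 18.8% for SIN3A, 29.1% for Pol II and 22.6% for H3K4me3, 1 Pol II peak (MCM4) and 1 H3K9Ac peak (PRIM1) were gained, and no other gain appeared. With either replicate left out, the median rank was 3.67% to 4.46% for SAP30, 13.9% to 15.9% for SIN3A and 13.0% to 14.3% for H3K9Ac. In the better-ranked 50% of each list 1 H3K4me3 peak (E2F2) was lost. With 1 replicate left out in turn, the number of genes called by limma for Pol II was 0 to 1 (RFC5, without SAP30-KO1 replicate 1), the number of Pol II peaks lost 0 to 3 (MCM5, GINS2 and RFC3, without SAP30-KO1 replicate 1), and the median change 2.17 to 7.42 points for Pol II and 3.59 to 6.30 for H3K4me3. The median H3K4me3 change was 2.81 minus the arm median and 6.25 with ranks among tested genes, and the median H3K9Ac change reversed to -0.23 and -0.074 under the same settings. With the most upstream start site, 3 genes in place of 6 were stronger without overlap for Pol II, and the GINS1 change reversed to 0.10. The cause of these shifts was not tested. With the replicate number as a replicate block, 0 genes of the set were called by limma in each mark, as without it, and it changed no other call on the set. Normal scores, log2 scores and no trend also gave 0 calls on the set. Calls over all genes did move: minus the arm median they were 30 (Pol II), 47 (H3K4me3) and 14 (H3K9Ac), against 0, 96 and 1. For H3K4me3 they were 0 with no trend, 48 at 500 bp, 61 with normal scores and 20 to 258 with 1 replicate left out, for Pol II 0 to 245 and for H3K9Ac 6 to 14 with 1 replicate left out. The limits are 2 libraries a group, unknown depth, lists that end at a q-value near 0.05 and ranks that depend on the other peaks of a list. Differences in rank cannot be read as amounts of protein or mark.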
